A study of Mus musculus with 26 samples.

Results

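The perinuclear theca is the protein shell that wraps the nucleus of the sperm head. Its messenger RNAs were followed here through 10 genes, chosen by name: *Actl7a*, *Actl7b*, *Actl9*, *Actrt1*, *Actrt2*, *Actrt3*, *Ccin*, *Cylc1*, *Cylc2* and *Capza3*. All 10 were found once each among the 51124 genes of the table of testis RNA-seq, and all 10 were among the 23782 genes with at least 10 normalized read counts in at least 2 libraries. Total RNA from whole testes of adult mice was depleted of ribosomal RNA and sequenced from 2 wild-type, 2 *10xPerf* and 2 *10xBulge* animals, with 1 library for each of 6 mice. *10xPerf* and *10xBulge* are homozygous CRISPR/Cas9 knock-in lines, made in B6D2F1/J hybrid embryos, that carry 10 binding sites for the pachytene piRNA piR-A in the last exon of *Ythdc2*, which encodes a meiotic RNA helicase. The sites of *10xPerf* pair with piR-A along its length, and those of *10xBulge* are mismatched to its nucleotides 10 and 11. The study asked what such sites do to the mRNA that carries them. It saw no effect on fertility in its homozygous lines, but occasionally smaller litters and lower expression of postmeiotic genes in *10xBulge*. The exact age of the mice, the strain of the wild-type controls and the number of founders behind each line are not given in the sources used here.

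The theca has a subacrosomal layer between acrosome and nucleus and a postacrosomal part called the calyx, and it is assembled in spermatids. ACTL7A, ACTL7B, ACTL9, ACTRT1, ACTRT2 and ACTRT3 are actin-related proteins of the testis, several of which bind one another in the subacrosomal layer and help to hold the acrosome to the nucleus. Calicin (*Ccin*, a kelch-repeat protein) and the cylicins (*Cylc1* and *Cylc2*, basic proteins) build the calyx, and CAPZA3 is the germ cell form of an actin-capping subunit. The genes are transcribed after meiosis, so their RNA in a whole testis comes mostly from spermatids. In such a bulk sample, fewer cells of a type and less RNA per cell cannot be told apart.

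On GRCm38, a build older than the GRCm39 to which the reads were assigned, 5 of the members lie on chromosome 4, 2 on chromosome X and the others on chromosomes 3, 6 and 17. *Actl7b* (chr4:56740005-56741443, minus strand) and *Actl7a* (chr4:56743413-56744925, plus strand) are transcribed away from each other, with 1969 bases between them. The longest GENCODE transcript has 1 exon in 7 of the 10 members, which include both genes of this pair, while *Actrt3* has 2 exons, *Cylc2* 5 and *Cylc1* 6. RefSeq windows from 250 bases before to 50 bases after a transcription start were at hand for 8 members, all but *Cylc2* and *Capza3*. On either strand, TGACGTCA, the cAMP response element through which CREM acts in spermatids, was present in the window of *Ccin*, as in 1.79% of the 32851 windows of all genes. The variant TGATGTCA (reverse TGACATCA), searched for after the windows of the members had been read, was present in *Actl7a*, *Actl7b*, *Actl9* and *Cylc1*, as in 3.62% of all windows. The matches are shown as a description of the members' starts, with the matched letters in capitals, each read 5′ to 3′ along the strand of its gene:
*Ccin* (chr4:43983444-43983471, plus strand, GRCm38.p6): atccattctaTGACGTCAccctctctcc
*Actl7b* (chr4:56741444-56741471, minus strand, GRCm38.p6): ccattcctggTGACATCAcaacccaagt
*Actl7a* (chr4:56743372-56743399, plus strand, GRCm38.p6): tcacaatcagTGATGTCActgttgggca
*Actl9* (chr17:33432829-33432856, plus strand, GRCm38.p6): gcaagcacaaTGATGTCAcagaccactg
*Cylc1* (chrX:111110376-111110403, plus strand, GRCm38.p6): ggtctctttaTGATGTCAtgactcaaca
The matches began 50 bases before the RefSeq start in *Ccin*, 36 in *Actl7b*, 40 in *Actl7a*, 60 in *Actl9* and 32 in *Cylc1*. These starts are not those of the GENCODE genes whose coordinates are given above for *Actl7b* and *Actl7a*. Neither form was found in the windows of *Actrt1*, *Actrt2* and *Actrt3*. A TATA box (TATAAA, either strand) was found in *Actl9* and in 13.6% of all windows, and GTTGCC (either strand), a half-site of RFX factors, in *Actl7b*, *Actrt1* and *Actrt2* and in 12.5% of all windows. CCAAT (either strand) was found in *Actl7b* and in 37.4% of all windows.

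The libraries hold roughly 41.1 to 61.6 M reads each, so that 3 reads, the limit that a count of 0 allows, correspond to between 2.73 and 3.63 normalized counts. These limits cover counting error only. *Ythdc2*, the targeted gene, stood at 827 and 2412 normalized counts in the wild-type testes, 1334 and 1136 in those of *10xPerf* and 1202 and 2458 in those of *10xBulge*, and did not pass the test in any comparison of genotypes. Markers of spermatids fell in *10xBulge*, 9 of 9 against wild type, where 23.0% of all genes tested fell and 11.4% rose. Their summed level was 484940 to 676633 normalized counts in wild-type testes, 587177 to 649762 in *10xPerf* testes and 884 to 1561 in *10xBulge* testes. Of 8 markers of spermatocytes, the meiotic cells, 1 fell (*Syce3*) and 1 rose (*Dmc1*), and their sums overlapped between *10xBulge* (44799 to 49620) and wild type (35090 to 50781). Of markers of other cells, 3 of 5 for Sertoli cells, 3 of 5 for Leydig cells, 4 of 4 for macrophages, 1 of 5 for spermatogonia and 0 of 3 for peritubular cells rose in *10xBulge*, where 11.4% of all genes tested did. Of the peritubular markers 0 also had an unadjusted p under 0.05 in limma, which 9148 of all 23782 genes tested had in either direction. Over the alternatives, single libraries left out included, these counts ran from 0 to 5 for Sertoli cells, 1 to 5 for Leydig cells, 2 to 4 for macrophages, 1 to 3 for spermatogonia and 0 to 1 for peritubular cells, and both calls among the spermatocyte markers were lost without wild-type replicate 1. Their summed levels in *10xBulge* and in wild type were 23587 to 33145 against 13121 to 13390 for Sertoli cells, 135659 to 282868 against 49463 to 70133 for Leydig cells, 6426 to 9502 against 1781 to 1921 for macrophages, 10783 to 12670 against 5044 to 7800 for spermatogonia and 6436 to 8602 against 4275 to 5703 for peritubular cells. No marker of these lists was at 0 in any library. What part these shifts have in the levels of the theca genes was not tested.

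RNA of the theca genes was lower in *10xBulge* testes than in wild type for every member, by between 6.23 times (*Actl7b*) and 367 times (*Actrt3*) in the ratio of means. All 10 members fell at an adjusted p under 0.1 (limma on log2(normalized count + 1), all 6 libraries in 1 fit, Benjamini-Hochberg over the 23782 genes tested), where 23.0% of all genes tested did. Both *10xBulge* libraries lay below both wild-type libraries in 10 of 10 members and in 33.2% of all genes tested. The members' median log2 fold change was -5.94, beside -0.026 over all genes tested. Scaled by library totals in place of the authors' normalization, all 10 remained lower, while the calls among all genes went from 2712 higher and 5466 lower to 5788 higher and 4745 lower. In *10xPerf* testes none of the 10 passed the test against wild type (0.959% of all genes tested did, in either direction). Of them 2 had an unadjusted p under 0.05 in limma, as had 1448 of all 23782 genes tested, and the members' median was 0.06. The 95% intervals of the *10xPerf* differences reach from -1.48 to 2.50, and changes within these intervals are not excluded. With 2 libraries against 2, an exact permutation test for a single value cannot go below p = 0.333.

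**Figure D1:**
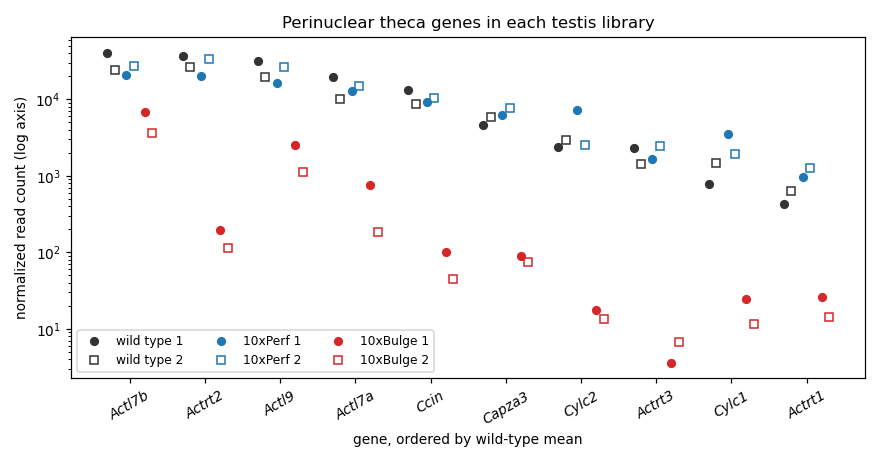
Normalized read count (log axis) of each of the 10 theca genes in the 6 testis libraries, with wild type in black, *10xPerf* in blue and *10xBulge* in red, circles for replicate 1 and open squares for replicate 2. Each gene's red points lie below its other 4 points, from 6855 and 3642 in *Actl7b* down to 3.62 and 6.69 in *Actrt3*.

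Among the actin-related proteins, *Actl7b* (ENSMUSG00000070980.5), a single-exon gene whose protein belongs to the spermatid cytoskeleton, kept the most RNA. The wild-type libraries held 40815 and 24611 normalized counts of it, those of *10xPerf* 21115 and 27336, and those of *10xBulge* 6855 and 3642. Both *10xBulge* libraries were below all others, and wild type and *10xPerf* overlapped. *10xBulge* kept 16.0% of the wild-type mean, which was 32713 ± 11457 (SD, n = 2), and *Actl7b* fell by 2.67 on the log2 scale (SE 0.48, limma adjusted p = 0.00297). Its divergent neighbour *Actl7a* (ENSMUSG00000070979.6), whose protein sits in the subacrosomal layer and is needed for acrosome attachment, was read at 19764 and 10177 in the wild-type animals, 13041 and 15059 in the *10xPerf* animals and 758 and 184 in the *10xBulge* animals. The *10xBulge* libraries differed 4.13 times from each other, the widest gap of any member in that line, and both were far below the rest. *Actl7a* fell by 5.24 (SE 0.64, limma adjusted p = 0.00027), to 3.14% of the wild-type mean of 14970 ± 6779 (SD, n = 2).

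*Actl9* (ENSMUSG00000092519.3), on chromosome 17, encodes a partner of ACTL7A in anchoring the acrosome. Its levels were 31460 and 19624 normalized counts in wild-type testes, 16539 and 26914 in *10xPerf* testes and 2560 and 1134 in *10xBulge* testes. The wild-type and *10xPerf* libraries overlapped and the *10xBulge* libraries were below both. *Actl9* fell by 3.87 (SE 0.52, limma adjusted p = 0.000475), with 7.23% of the wild-type mean left. *Actl7b* and *Actl9* kept the largest shares of their wild-type level among the 10 members.

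The ACTRT genes fell from very different levels. *Actrt2* (ENSMUSG00000051276.5), 1 of the most abundant members in wild type, gave 36795 and 26639 normalized counts there, 20321 and 33982 with perfect sites and only 197 and 114 with bulged sites. That is 0.49% of the wild-type mean of 31717 ± 7181 (SD, n = 2), and a log2 fold change of -7.70 (SE 0.46, limma adjusted p = 6.33e-06). *Actrt2* and *Actl7b* thus started from overlapping levels and ended far apart in *10xBulge*. *Actrt3* (ENSMUSG00000037737.7), whose protein binds the testis profilin PFN3, went from 2331 and 1450 in the wild-type libraries, and 1648 and 2467 in those of *10xPerf*, to 3.62 and 6.69 in those of *10xBulge*, or about 4 and 7 reads. Its log2 fold change of -8.27 (SE 0.47, limma adjusted p = 5.7e-06) was the lowest of the 10, and only 0.509% of all genes tested had a fold change as low or lower. The *10xBulge* value of *Actrt3* is so near the limit of detection that its fold change depends on the pseudocount, and it was not the lowest with a pseudocount of 10 (-6.94, beside -7.61 for *Actrt2* and -7.10 for *Ccin*) or without *10xBulge* replicate 1 (-7.90, beside -8.08 for *Actrt2*). *Actrt1* (ENSMUSG00000046615.3), X-linked and the least abundant member in wild type, gave 427 and 634 there, 961 and 1266 with perfect sites and 26.0 and 14.2 with bulged sites. It fell by 4.68 (SE 0.47, limma adjusted p = 7.53e-05), and its *10xPerf* libraries lay above both wild-type libraries.

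The calyx genes fell to between 0.586% and 1.61% of their wild-type means. *Ccin* (ENSMUSG00000070999.3) reached 13226 and 8665 normalized counts in the wild-type testes and 9145 and 10393 in the *10xPerf* testes, but 102 and 44.7 in the *10xBulge* testes. Only 0.669% of the wild-type mean of 10945 ± 3225 (SD, n = 2) was left, with a log2 fold change of -7.29 (SE 0.48, limma adjusted p = 8.88e-06). Wild type and *10xPerf* overlapped, and *10xBulge* was apart from both. *Cylc2* (ENSMUSG00000039555.16) reached 2418 and 2941 in the wild-type testes and 7201 and 2520 in the *10xPerf* testes, but 17.8 and 13.6 in the *10xBulge* testes. *10xPerf* replicate 1 was 2.86 times replicate 2, the widest gap of any member in that line, and the 2 *10xBulge* libraries were close. *Cylc2* fell by 7.33 in *10xBulge* (SE 0.53, limma adjusted p = 1.29e-05), to 0.586% of wild type. *Cylc1* (ENSMUSG00000073001.5), the X-linked cylicin, was read at 782 and 1469 in the wild-type animals, 3536 and 1917 in the *10xPerf* animals and 24.7 and 11.6 in the *10xBulge* animals. It fell by 5.90 (SE 0.54, limma adjusted p = 4.41e-05), with 1.61% left, and in *10xPerf* it was above both wild-type libraries.

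*Capza3* (ENSMUSG00000041791.7), which caps actin filaments together with a beta subunit, differed by at most 0.34 on the log2 scale between both libraries of a genotype. Wild-type testes had 4617 and 5831 normalized counts of *Capza3* RNA, *10xPerf* testes 6335 and 7743, and *10xBulge* testes 88.6 and 75.2. The *10xPerf* libraries were above wild type without overlap, and the *10xBulge* libraries were below. *Capza3* fell by 5.97 in *10xBulge* (SE 0.38, limma adjusted p = 8.08e-06), to 1.57% of the wild-type mean of 5224 ± 859 (SD, n = 2).

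**Figure D2:**
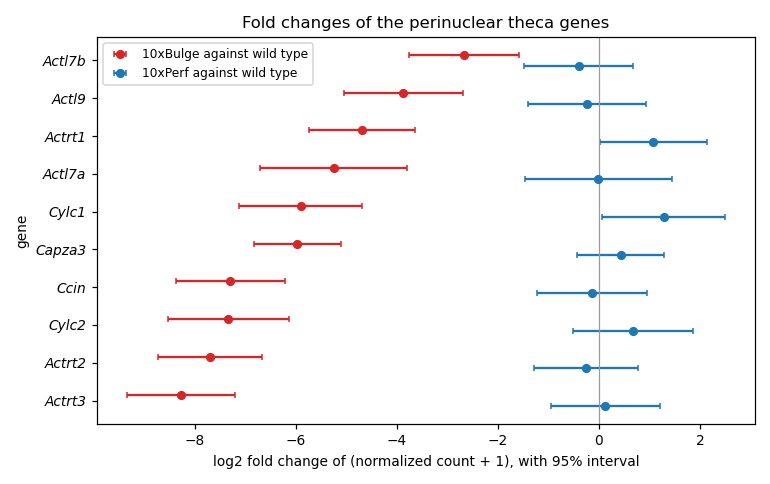
Log2 fold change of (normalized count + 1) for each theca gene with its 95% interval from limma, for *10xBulge* against wild type in red and *10xPerf* against wild type in blue. The red values run from -8.27 (*Actrt3*) to -2.67 (*Actl7b*), and the blue values lie between -0.40 and 1.28.

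The size of the drop in *10xBulge* was uneven among the members, as described here by their intervals. No contrast between genes was fitted, and the intervals allow neither for the number of pairs nor for the libraries that the genes share. Of the 45 pairs of members, 19 had 95% intervals of the fold change against wild type that did not overlap. The interval of *Actl7b* (-3.75 to -1.58) was apart from those of *Actl7a* (-6.70 to -3.79) and *Actrt2* (-8.73 to -6.66), for example. In contrast, *Actrt2*, *Actrt3*, *Ccin* and *Cylc2*, with values from -8.27 to -7.29, had intervals that overlapped one another.

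Ratios within libraries show the same values in another form, for pairs of genes picked after their values were seen, and are no second observation of the unevenness. *Actl7b* to *Actl7a* was 2.07 and 2.42 in the wild-type libraries, 1.62 and 1.82 in those of *10xPerf*, and 9.05 and 19.8 in those of *10xBulge*. *Actl7b* to *Actrt2* was 1.11 and 0.924 in the wild-type libraries, 1.04 and 0.804 in those of *10xPerf*, and 34.9 and 31.8 in those of *10xBulge*. *Actl9* to *Ccin* went from 2.38 and 2.26 (wild type) and 1.81 and 2.59 (*10xPerf*) to 25.1 and 25.4 in *10xBulge*. In each pair both *10xBulge* libraries lay outside the range of the other 4, and since both genes of a pair are read in the same library, no scaling of whole libraries can move these ratios. The order turned round for *Actrt2* and *Actl7a*, whose ratio was 1.86 and 2.62 in the wild-type libraries, 1.56 and 2.26 in those of *10xPerf*, and 0.259 and 0.624 in those of *10xBulge*. For each of these ratios the two-sided exact permutation test of *10xBulge* against wild type gave p = 0.333, the smallest that n = 2 against 2 allows.

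**Figure D3:**
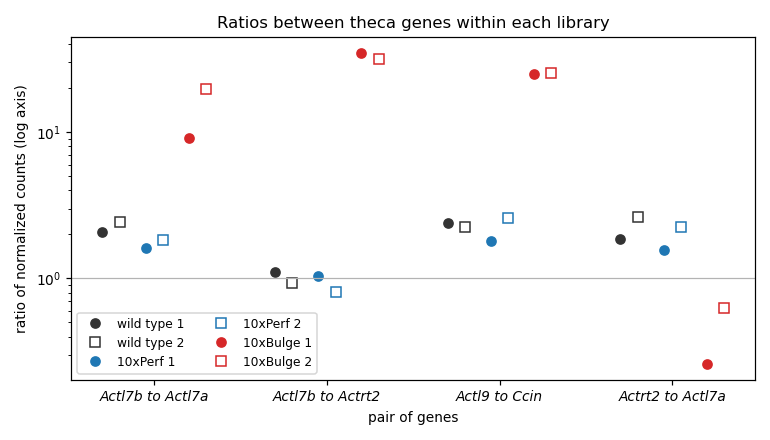
Ratio of normalized counts (log axis) between 2 theca genes in each of the 6 libraries, for 4 pairs, with colours and symbols by genotype and replicate and a line at 1. The red *10xBulge* points stand apart in each pair, as for *Actl7b* to *Actrt2* with 34.9 and 31.8 against 0.804 to 1.11 in the other libraries.

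Levels of different genes can be set side by side only per length. Per kilobase of the longest transcript, the order in wild type was *Actl7b* (22733 ± 7962 normalized counts per kb, SD, n = 2), *Actrt2* (22102 ± 5004), *Actl9* (18603 ± 6096), *Actl7a* (9894 ± 4481), *Ccin* (5639 ± 1661), *Capza3* (4275 ± 703), *Cylc2* (1633 ± 225), *Actrt3* (964 ± 317), *Cylc1* (572 ± 246) and *Actrt1* (396 ± 109). In this order the libraries of *Actl9* and *Actl7a*, of *Capza3* and *Cylc2* and of *Cylc2* and *Actrt3* did not overlap, and those of every other pair of neighbours did. In *10xPerf* the top 4 were the same genes, led by *Actrt2* (18921 ± 6732 per kb) and *Actl7b* (16835 ± 3057). The order in *10xBulge* was *Actl7b* (3647 ± 1579 per kb), *Actl9* (1345 ± 734), *Actl7a* (311 ± 268), *Actrt2* (108 ± 40.5), *Capza3* (67.0 ± 7.74), *Ccin* (37.7 ± 20.8), *Actrt1* (15 ± 6.21), *Cylc2* (9.58 ± 1.83), *Cylc1* (9.21 ± 4.69) and *Actrt3* (2.63 ± 1.11). There, *Actl7a* and *Actrt2* overlapped, as did *Actrt1*, *Cylc2* and *Cylc1*, and the other neighbours were apart. *Actrt2* went from place 2 in wild type to place 4, and *Actrt3* from place 8 to place 10.

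The 2 *10xBulge* libraries differed in the level of most theca genes. Replicate 1 was above replicate 2 in 9 of 10 members and in 56.6% of all genes tested, by between 1.18 times (*Capza3*) and 4.13 times (*Actl7a*), and *Actrt3* went the other way at about 4 and 7 reads. The summed level of the 10 members was 10632 normalized counts in replicate 1 and 5240 in replicate 2, beside 152634 and 102041 in wild type, and *Actl7b* and *Actl9* made up 9415 and 4776 of it. The 9 spermatid markers summed to 1561 and 884 in the same 2 libraries, and the markers of Leydig cells, Sertoli cells and macrophages were also higher in replicate 1, with sums of 282868 and 135659, 33145 and 23587, and 9502 and 6426. So were those of spermatocytes (49620 and 44799), spermatogonia (12670 and 10783) and peritubular cells (8602 and 6436). All genes together summed to 50081041 and 39754103. The sum of a list of 23 other theca and acrosome-anchor genes, described below, went the other way, with 55752 and 62610. Most genes of that list were nevertheless higher in replicate 1. Its sum was turned by abundant genes such as *Capza1* (12253 and 18166) and *Zpbp* (4586 and 10868). What part cell types or library totals have in the difference between both libraries was not tested.

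Against *10xPerf*, which carries the same number of sites, all 10 members also fell in *10xBulge* (adjusted p under 0.1 in limma, as in 24.1% of all genes tested in that direction). The median was -6.78, beside -0.067 over all genes tested, and the values ran from -8.40 (*Actrt3*, SE 0.47) to -2.27 (*Actl7b*, SE 0.48, limma adjusted p = 0.0071). Both comparisons use the same *10xBulge* libraries and are not independent. The value for *Cylc1* was -7.18 (SE 0.54) against *10xPerf*, beside -5.90 against wild type, and that for *Actrt1* was -5.77 (SE 0.47), beside -4.68.

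In *10xPerf* against wild type the members split by sign, with 5 values above 0 and 5 below, and none passed the test. The X-linked genes had the highest values, with a log2 fold change of 1.28 for *Cylc1* (95% interval 0.06 to 2.50, limma adjusted p = 0.782) and 1.08 for *Actrt1* (0.03 to 2.14, limma adjusted p = 0.799). *Cylc2* had 0.68 (-0.51 to 1.86) and *Capza3* 0.43 (-0.43 to 1.29). Both *10xPerf* libraries were above both wild-type libraries in *Cylc1*, *Actrt1* and *Capza3*, or 3 of 10 members, where 20.2% of all genes tested showed this. The lowest value was that of *Actl7b* at -0.40 (-1.48 to 0.68), and *Actl7a*, *Actl9*, *Actrt2* and *Ccin* lay between -0.25 and -0.02. These 5 genes, which had GC contents above 50%, turned to values above 0 when each library's trend with GC content was removed (0.10 for *Actl7b*, 0.28 for *Actl7a*, 0.09 for *Actl9*, 0.18 for *Actrt2* and 0.13 for *Ccin*), while *Cylc1* had 1.03 and *Actrt1* 0.87. The median over all genes tested rose as well in that setting, from 0.018 to 0.089, and what moved the 5 values was not tested.

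The 2 wild-type libraries differed along the same line. The GC content of the members' longest transcripts ranged from 36.8% (*Cylc1*) to 58.6% (*Actl7b*). Wild-type replicate 1 was above replicate 2 in all 5 members with a GC content above 50% and in 1 of the 5 below it (*Actrt3*, 49.3%), with ratios from 0.533 (*Cylc1*) to 1.94 (*Actl7a*). Across the 10 genes the log2 ratio of both libraries had a Pearson's r of 0.89 and a Spearman's rho of 0.75 with GC content, which describes genes of the same 2 libraries and not independent replicates. Neither the count nor the correlation was taken over all genes tested, so they cannot be read as a trait of the members. With each library's trend with GC content removed, all 10 members were lower in *10xBulge* than in wild type, with a median of -5.96.

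**Figure D4:**
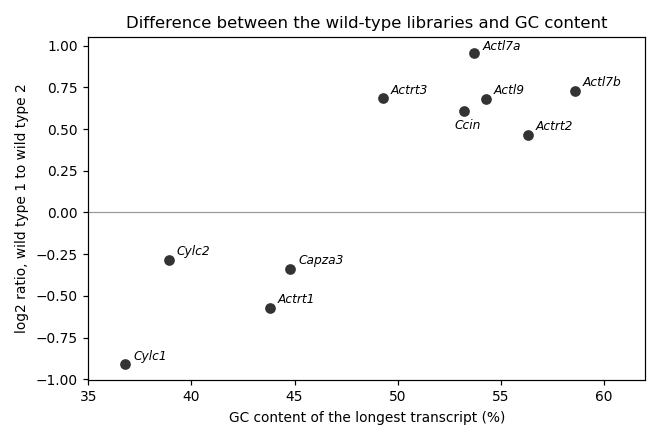
Log2 ratio of wild-type replicate 1 to wild-type replicate 2 against the GC content of the longest transcript, 1 point for each of the 10 theca genes, with a line at no difference. The 6 genes above the line have GC contents of 49.3% or more and the 4 below it have 44.8% or less.

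Other genes of the theca and of the acrosome's anchor to the nucleus, a list of 23, did not all move with the members. In *10xBulge* against wild type 16 fell, 1 rose and 6 did not pass the test (background 23.0% lower and 11.4% higher), with a median of -5.00. Among those that fell were *Plcz1*, the phospholipase that activates the egg (-6.33, SE 0.45, limma adjusted p = 1.29e-05), and *Wbp2nl*, a protein of the postacrosomal sheath. *H2bl1*, a histone variant of the subacrosomal theca, went from 4537 and 4649 normalized counts in the wild-type testes to 33.7 and 26.1 in those of *10xBulge*. *Pfn3*, the profilin that binds ACTRT3, went from 921 and 398 to 6.55 and 6.91, and fell by 6.30 (SE 0.50). The 7 *Cypt* genes, a cysteine-rich theca family with close copies between which reads may be shared, all fell, with log2 fold changes from -7.74 to -4.49. *Cypt14* and *Cypt15*, singled out after their values were seen, were at 0 in *10xBulge* replicate 2, and at 1.82, or 2 reads, in replicate 1.

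The 6 genes that did not pass the test, together with *Gsto2* and *Capza2*, stood apart from these drops. *Pfn4*, another testis profilin, was at 6198 and 8338 normalized counts in the wild-type testes and at 7366 and 5603 in those of *10xBulge*, with a log2 fold change of -0.16 (95% interval -1.07 to 0.74). *Dpy19l2*, which ties the acrosome to the inner nuclear membrane, was at 8668 and 10434 in the wild-type testes and at 5461 and 9285 in those of *10xBulge* (-0.42, -1.37 to 0.53). Its partner *Fam209* fell by 6.12 (SE 0.43, limma adjusted p = 1.17e-05), so both genes of 1 membrane complex differed widely, with intervals apart. *Zpbp* and *Zpbp2*, of the acrosome matrix, did not pass the test either. The alpha subunits of the capping dimers of other cells did not fall with *Capza3*: *Capza1* had 0.32 (-0.77 to 1.41), and *Capza2* rose by 1.88 (SE 0.50, limma adjusted p = 0.0229). *Capzb*, the beta subunit, had -1.16 (-2.37 to 0.05, limma adjusted p = 0.146), and was called lower with the upper quartile as the scale (-1.30, limma adjusted p = 0.0709), with the GC trend removed (-1.12, limma adjusted p = 0.0704) and without *10xBulge* replicate 1 (-1.86, limma adjusted p = 0.0184). The rise of *Capza2* did not pass without wild-type replicate 1 (1.34, limma adjusted p = 0.165), and the fall of *Gsto2* (-1.23, limma adjusted p = 0.0848) was lost without wild-type replicate 1 (-0.79, limma adjusted p = 0.359), without *10xBulge* replicate 2 (-1.03, limma adjusted p = 0.18), with library totals (-0.85, limma adjusted p = 0.128), with the filter of 1 in 1 library (limma adjusted p = 0.118), in the fit of both genotypes alone (limma adjusted p = 0.127), without the mean-variance trend (limma adjusted p = 0.123) and at an adjusted p under 0.05. In *10xPerf* against wild type 0 of the 23 passed limma's test, with a median of 0.09. Of the 23, 1 had an unadjusted p under 0.05 in limma, as had 1448 of all 23782 genes tested.

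The actin genes and actin-related genes that many cell types use, a list of 11, contrast with the actin-related genes of the theca. None fell in *10xBulge*, 2 rose and 9 did not pass the test (background 23.0% lower and 11.4% higher). The median was 0.58, with values from -0.12 to 1.85. *Actr3*, of the ARP2/3 complex that branches actin filaments, rose by 1.85 (SE 0.40, limma adjusted p = 0.00878), from 950 and 1531 normalized counts to 4297 and 4375. *Actr2*, of the same complex, rose by 1.61 (SE 0.44, limma adjusted p = 0.0266), but not without wild-type replicate 1 (1.13, limma adjusted p = 0.158). The 95% intervals of all 11 genes lay above those of all 10 members, the nearest bounds being -1.58 (*Actl7b*, upper) and -1.16 (*Actg1*, lower). *Actg1*, a cytoplasmic actin, had -0.09 (-1.16 to 0.98), and *Actr1a*, of dynactin, -0.12 (-1.15 to 0.90). With library totals as the scale 6 of the 11 rose, as did 5788 of all 23759 genes tested in that setting. In *10xPerf* against wild type 0 of 11 passed limma's test, with a median of -0.06. Of the 11, 0 had an unadjusted p under 0.05 in limma, beside 1448 of all 23782 genes tested. In *10xBulge* testes markers of Sertoli cells, Leydig cells and macrophages, given above, were higher too, and their part in these levels was not tested.

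**Figure D5:**
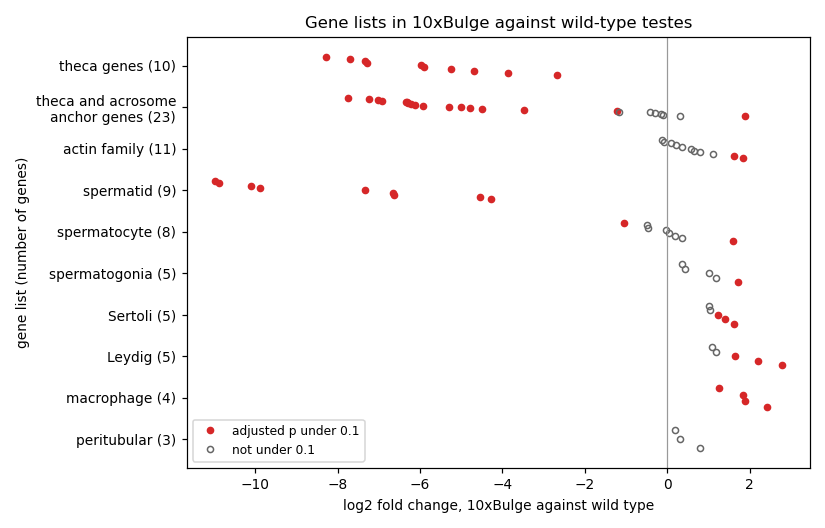
Log2 fold change in *10xBulge* against wild-type testes for each gene of the theca members, the other theca and anchor genes, the actin family and the cell type markers, 1 point per gene, filled red where limma's adjusted p is under 0.1. The theca members lie between -8.27 and -2.67, the spermatid markers between -10.97 and -4.28 and the actin family between -0.12 and 1.85.

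The genes whose profile over the 6 libraries was nearest to that of the members were sought among 15846 other genes with a mean of at least 100 normalized counts. The measure was the root mean square distance of log2(value + 1), less the mean of both wild-type libraries, from the members' median profile. That profile was 0.27 and -0.27 in the wild-type libraries, -0.14 and 0.12 in those of *10xPerf* and -5.62 and -6.34 in those of *10xBulge*. The nearest genes were *Fam187b* (distance 0.06), *Spata18* (0.08), *1700011L22Rik* (0.13), *Col22a1* (0.18) and the lncRNA *Gm31314* (0.18), against a median of 3.55 over all candidates. *Fam187b* was read at 13505 and 9799 normalized counts in the wild-type testes, 9815 and 11683 in those of *10xPerf* and 232 and 148 in those of *10xBulge*. *Spata18* was read at 25732 and 19609, 22173 and 23839, and 419 and 276 in the same order. The members themselves lay at 0.39 (*Capza3*) to 1.93 (*Actl7b*) from their own median profile, which is no comparison with the 5 genes, since those were picked for a short distance.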

How the data were processed

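Total RNA of 6 adult testes (2 wild type, 2 *10xPerf*, 2 *10xBulge*) was analysed, and the 20 MILI and MIWI immunoprecipitation libraries were not analysed here. The authors assigned single-end reads to GRCm39 transcripts (Ensembl 104) with salmon, with its GC correction, and deposited normalized read counts from DESeq2, a signal value for each gene in each library, in steps other than whole reads. The deposited table also holds log2 fold changes and adjusted p-values of both knock-in lines against wild type and a mean over libraries, which were not used. Depth was taken as each library's sum divided by its most frequent value under 2 normalized counts, the worth of 1 read, which is approximate. Genes that reached 10 normalized counts in 2 or more libraries were fitted as log2(value + 1) with limma 3.58.1 in R 4.3.3 (a term per genotype, mean-variance trend, Benjamini-Hochberg adjustment, threshold 0.1, which is that of the study), after a test on simulated data. As the fold change is on the log2(value + 1) scale, it understates the change of low genes. The design had named edgeR for counts, which the table does not hold. Each library is a separate mouse. The p-values rest on the spread between these animals, which limma draws for each gene toward that of genes of similar level.

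The members, the gene lists and the tests were chosen with earlier results of these data known. Named are all members, the list of other theca genes and that of actin genes (counts, and up to 10 values each), the 5 genes nearest in profile, and the marker lists. Lists are described by counts and medians, with no test of the list. GC content and transcript length came from the longest GENCODE M21 transcript on GRCm38, and promoter windows from RefSeq on GRCm38.p6. Alternatives were scaling by library totals or upper quartile, filters of 1 in 1 library and of 10 in every library, a fit of both genotypes compared only, no mean-variance trend, an adjusted p under 0.05, pseudocounts of 0.1 and 10, removal of each library's GC trend (loess, span 0.3), and leaving out each library. Other steps ran in Python 3.11.15 with scipy 1.17.1, and figures were drawn with matplotlib 3.10.9.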

Additional observations from a re-analysis of the deposited data

How the results depend on the processing

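In *10xBulge* against wild type and against *10xPerf*, every member tested remained lower under every alternative (139 values a comparison, limma adjusted p at most 0.0408 and 0.0811). With at least 10 normalized counts required in every library, *Actrt3* was not tested, and 9 of 9 were lower. Without 1 library at a time, the members' median ran from -6.34 to -5.62 against wild type and from -7.11 to -6.43 against *10xPerf*, and where a genotype was left with 1 library, that library was assumed to vary like the others. In *10xPerf* against wild type 0 members passed under any alternative (limma adjusted p at least 0.398), and 15 of 139 values changed sign: *Actl7a* to 0.12 with library totals, *Actl7a* (0.28), *Actl7b* (0.10), *Actl9* (0.09), *Actrt2* (0.18) and *Ccin* (0.13) with the GC trend removed, and 9 without 1 library. Without 1 library the median ran from -0.32 to 0.36, *Actl7a* from -0.50 to 0.46, *Actl9* from -0.59 to 0.12, *Ccin* from -0.44 to 0.17, *Actrt2* from -0.62 to 0.12, *Actrt3* from -0.21 to 0.48 and *Cylc2* from -0.08 to 1.43. Against wild type, the median over all genes tested in *10xBulge* was -0.026, and became 0.358 with library totals and -0.164 with the upper quartile, shifts small beside the members' drops. The genes called among all tested (2712 higher and 5466 lower against wild type, 3077 and 5729 against *10xPerf*) changed over 1.5 times in some settings. Library totals gave 5788 and 5122 higher, the filter in every library 2926 and 3064 lower, an adjusted p under 0.05 1370 and 1725 higher, and the fit of wild type and *10xBulge* alone 1716 higher. Without 1 library, the number higher ran from 659 to 2933 and from 454 to 3351, and the number lower against *10xPerf* from 3704 to 5854. In *10xPerf* against wild type 111 higher and 117 lower became 72 and 77 with library totals, 44 and 53 with the filter in every library, 239 and 208 with both genotypes alone, 63 and 72 at an adjusted p under 0.05, 40 and 65 with a pseudocount of 0.1, and 3 to 34 and 15 to 28 without 1 library. The causes were not tested. No paired analysis was made, as the sample labels used here name nothing that pairs animals of the 3 genotypes. At 3 reads, depth limits the *10xBulge* level of *Actrt3*.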

Other observations

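Of 4 other genes of the same families, looked up after values were seen and outside the lists, 3 were lower in *10xBulge*, as were 23.0% of all genes tested. Picked in this way, they are given as a description only. *Actl11*, an actin-like gene of the testis, was read at 27720 and 18827 normalized counts in the wild-type testes, 19724 and 18382 in those of *10xPerf* and 174 and 42.6 in those of *10xBulge* (log2 fold change against wild type -8.03, SE 0.61, limma adjusted p = 1.65e-05). *Actl10* was read at 1888 and 1282, 885 and 1379, and 39.5 and 13.7 in the same order (-5.99, SE 0.55, limma adjusted p = 4.51e-05). *Pfn5*, named as a profilin, was read at 563 and 570, 825 and 1054, and 4.47 and 2.85, the last about 5 and 3 reads (-6.95, SE 0.44, limma adjusted p = 7.68e-06). The *10xBulge* libraries of all 3 genes were below the other 4, and *Actl11* differed about as widely between the *10xBulge* libraries as *Actl7a* did. *Actl6b*, the fourth gene, was below the filter on low values and not tested, with 9.05 and 6.43 normalized counts in the wild-type testes, 4.92 and 17.2 in those of *10xPerf* and 3.8 and 7.86 in those of *10xBulge*, which overlap.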
